A study of Mus musculus with 6 samples.

Results

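Tenascin C (Tnc) and 9 other genes of secreted matrix glycoproteins and their assembly were followed in whole mouse embryos at mid-gestation (E10.5). The other members were Fn1, Postn, Fbn1, Fbn2, Fbln1, Eln, Vcan, Sparc and Lox. All 10 genes were found among the 55401 genes of the count table, and all 10 were among the 16784 genes that passed the filter on low counts. The members were selected on earlier results of the same 5C against WT contrast, in which Tnc had been seen to be lower in 5C. Their differences between genotypes are therefore given as a description, with no test.

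RNA-seq had been made from 3 libraries of each of 2 genotypes. WT embryos carried the unmodified Igf2 locus. 5C embryos carried 5 tandem copies of Mir483, the microRNA gene hosted by an Igf2 intron, at that endogenous locus. Both genotypes were on a C57BL/6J background, with no treatment. The targeted line came from C57BL/6N embryonic stem cells by cassette exchange, and the array lies inside the imprinted Igf2 locus. Each library was made from a lysate of whole embryos and, per the study's methods, from a pool of 2 male embryos, the WT embryos being littermates of the 5C embryos. The titles do not say whether equal replicate numbers mark a litter, so the main fit has no term for litter. The standard errors come from that edgeR fit, which estimates the spread between these pools with information shared over all genes.

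The matrix glycoproteins are the part of the extracellular matrix that cells attach to and that organises fibres. Fibronectin, the product of Fn1, is assembled by integrins into fibrils along which mesenchymal and neural crest cells migrate, and it is needed for early heart, vessel and somite formation. Tenascin C binds fibronectin and modulates cell adhesion, and in the embryo it appears along crest migration paths, in somites and later in tendon and bone mesenchyme. Fibrillins (Fbn1, Fbn2) polymerise into microfibrils, on which elastin (Eln) is later deposited and cross-linked by lysyl oxidase (Lox). Versican (Vcan) is a large hyaluronan-binding proteoglycan of the cardiac jelly and of crest-free zones.

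The 5C allele differs from WT in its copies of a microRNA gene, so the mature strands of that gene are shown first, with the seed (bases 2 to 8) in capitals. Both are encoded on the minus strand of chromosome 7, at chr7:142654932-142654952 for the 3p strand and chr7:142654968-142654989 for the 5p strand in GRCm38.p6 (RefSeq).
mmu-miR-483-3p: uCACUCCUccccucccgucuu
mmu-miR-483-5p: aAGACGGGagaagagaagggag
The seed of miR-483-3p pairs with AGGAGTG in a transcript, and that of miR-483-5p with CCCGTCT. The 3′ UTR searched was that of the longest annotated coding transcript of each gene, and other 3′ UTRs were not searched. Fbln1 was the 1 of 10 members that held AGGAGTG there, against 1805 of 13898 genes tested with a 3′ UTR. The window of 30 bases printed here, which holds the site, lies on the plus strand at chr15:85285188-85285217 (GRCm38), with the match in capitals.
Fbln1 site for mmu-miR-483-3p: tgtggctcagccAGGAGTGtaccccgcccc
No member held CCCGTCT, which 3.61% of the genes held. The searched 3′ UTR of Tnc, of 648 bases, thus held neither of these letter strings. A match or its absence describes these letters in this window only.

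Library totals ranged from 6357343 counts in WT replicate 3 to 19151368 in WT replicate 1, and a level is given as CPM, the count relative to the scaled size of its library. A count of 3, taken as the floor, stood for 0.157 to 0.472 CPM. The Mir483 gene itself had 11, 5 and 2 counts in WT and 85, 51 and 36 in 5C, in the direction of the labels. These counts come from poly(A)-selected RNA and do not measure the mature microRNA. Libraries differed in ways that genotype does not explain. Transcripts of the Y-linked genes Ddx3y, Kdm5d, Eif2s3y and Uty, at 25.3 CPM or more in replicates 1 and 3 of both genotypes, were at 1.37 CPM or less in replicate 2 of both, and Xist was at 495 CPM or more in every library, which goes against pools of males only. Results are therefore also given without these libraries. The summed level of 12 markers of yolk sac endoderm and hepatoblasts, among them Afp and Apob, was 6646 CPM in WT replicate 1, 216 in WT replicate 2 and 490 in WT replicate 3, against 155, 154 and 1294 CPM in 5C replicates 1, 2 and 3. All 12 had a negative log2 fold change, with a median of -2.09. The mesenchyme markers summed to 816 to 882 CPM in WT against 810 to 839 CPM in 5C pools, and 8 of 12 were lower in 5C with a median of -0.03. Among them Pdgfra was at 284 to 331 CPM across the 6 libraries. Pdgfrb had a log2 fold change of -0.29 (unadjusted p = 0.0269, adjusted p = 0.781 in edgeR), with overlapping groups. Twist1 had 0.21 (unadjusted p = 0.0300, adjusted p = 0.781 in edgeR), and every 5C pool was above every WT pool.

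Per length of transcript, versican was the most abundant of the 10 messages in WT embryos and elastin the least. Levels here are in TPM (counts per kilobase of exon scaled to a constant total), and errors are SDs over the 3 WT libraries. Vcan stood at 233 ± 20.2 TPM and Sparc at 149 ± 28.4 TPM. A group of 4 genes followed with levels that ran into each other. Fn1 had a mean of 93.2 TPM (71.7 to 108 over the pools), Fbn2 86.6 (75.1 to 98.8), Postn 73.2 (61.5 to 82.1) and Fbln1 65.8 (54.2 to 72.2), and neighbours within this group overlapped in range. Fbn1 was at 30.6 ± 4.04 TPM, Tnc at 22.5 ± 3.05 TPM and Lox at 5.94 ± 1.61 TPM, with no overlap between neighbours. Eln stood at 0.855 ± 0.214 TPM, from 17 to 44 counts per WT library, so that its values rest on few reads. Among the fibrillins, the fetal form Fbn2 exceeded Fbn1 in every library. The Fbn1 to Fbn2 ratio per length was 0.354 ± 0.0239 in WT and 0.346 ± 0.0289 in 5C (SD, n = 3 each), with overlapping values.

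**Figure D1:**
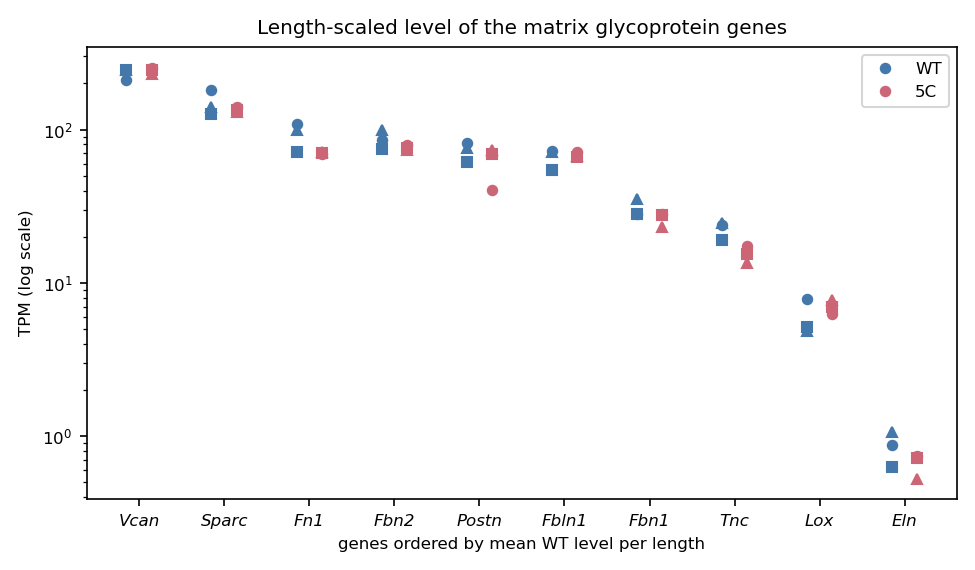
Level per transcript length (TPM, log scale) of the 10 matrix glycoprotein genes, ordered by WT mean, with 1 point per library (WT blue, 5C red; circle, square and triangle for replicates 1, 2 and 3). Vcan lies highest at a WT mean of 233 TPM and Eln lowest at 0.855 TPM, and the order of Fn1, Fbn2, Postn and Fbln1 cannot be read beyond their overlapping ranges.

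Across the 10 members, 9 had a lower fitted level in 5C than in WT and Lox had a higher one, with a median log2 fold change of -0.26 against -0.00 over all genes tested. Of all genes tested, 50.7% had a negative value. For Tnc, Fn1, Fbn1 and Fbn2, every 5C library was below every WT library. This arrangement held for 5.10% of all genes tested (856 genes). Because the rule used this contrast, nothing is read from the members' share. No gene of the table passed an adjusted p under 0.05 with a fold change over 1.5 in edgeR (0% called), although 1011 genes had an unadjusted p under 0.05. DESeq2 called 10 genes and limma-voom 0. Tnc was the 1 member among the DESeq2 calls, which is not read as a test because the members were selected on this contrast. In whole embryos, fewer cells of a type and less RNA per cell cannot be told apart.

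Tnc gave the largest difference among the members. The gene lies on the minus strand at chr4:63959785-64047015 (GRCm38; ENSMUSG00000028364), and its counts do not separate its spliced forms. Tnc was at 60.8, 47.1 and 60.1 CPM in the WT pools (replicates 1, 2 and 3 in that order, here and for each gene below), against 41.0, 36.7 and 32.7 CPM in the 5C pools. The genotypes did not overlap, and the lowest WT pool exceeded the highest 5C pool by 6.09 CPM. The means were 56.0 ± 7.74 CPM (WT) and 36.8 ± 4.11 CPM (5C; SD over n = 3 pools), a fitted log2 fold change of -0.60 ± 0.12 (SE), or 1.52-fold lower. These values rest on 377 to 1158 counts per library. Per length, every 5C pool, at 13.4 to 17.5 TPM, was below every WT pool, of mean 22.5 ± 3.05 TPM. Of the 10 members, Tnc alone had separated groups on the TPM scale, which 2.19% of genes had. Within the replicate 2 pools, which had Y-linked transcripts at 1.37 CPM or less, Tnc was at 47.1 CPM for WT and at 36.7 CPM for 5C. Over replicates 1 and 3 alone its log2 fold change was -0.71. These values reuse the libraries on which Tnc was selected, so they are no separate support for its difference. An exon of a transcript on the opposite strand covered 2.26% of its exon bases.

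Fn1, at chr1:71585520-71653200 on the minus strand, was the next largest of the well-counted members. Its level was 410, 267 and 370 CPM in the WT pools, against 245, 253 and 265 CPM in the 5C pools. The 5C pools were close together and the WT pools wide apart, and the groups were separated by 2.46 CPM alone, between WT replicate 2 and 5C replicate 3. The means were 349 ± 73.7 CPM (WT) and 254 ± 9.80 CPM (5C; SD over n = 3 pools), with a log2 fold change of -0.46 ± 0.13 (SE). On the TPM scale the ranges met, at a lowest WT value of 71.7 and a highest 5C value of 71.8. WT replicate 1, the pool with the highest yolk sac and hepatoblast markers, also had the highest Fn1, and without it the log2 fold change was -0.32. The part of these cells in the Fn1 difference was not tested. The per-length ratio of Tnc to Fn1 was 0.223, 0.265 and 0.244 in WT and 0.251, 0.219 and 0.186 in 5C, with overlap between the genotypes.

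Postn encodes periostin, a matricellular protein of cushion mesenchyme and connective tissue that binds fibronectin and tenascin C (chr3:54361109-54391037, plus strand). It stood at 232, 171 and 209 CPM in the WT pools, against 106, 185 and 203 CPM in the 5C pools. A single pool, 5C replicate 1, was low, and the other 5C values lay inside the WT range. The log2 fold change of -0.31 ± 0.21 (SE) became -0.07 without that library. Postn had the widest spread in 5C of the 10 genes, with a coefficient of variation of 31.3%.

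Sparc encodes osteonectin, a collagen-binding glycoprotein abundant in parietal endoderm and mesenchyme (chr11:55394500-55423183, minus strand). Its level was 223, 152 and 168 CPM in the WT pools, against 159, 156 and 156 CPM in the 5C pools. The 5C pools lay between WT replicates 2 and 3, and WT replicate 1 alone stood above the rest. The log2 fold change was -0.21 ± 0.12 (SE), and it was -0.03 without WT replicate 1. That library was also the one with 6646 CPM of yolk sac and hepatoblast markers, and 5C replicate 3, with 1294 CPM of them, had Sparc at 156 CPM. The part of these cells in the Sparc difference was not tested.

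**Figure D2:**
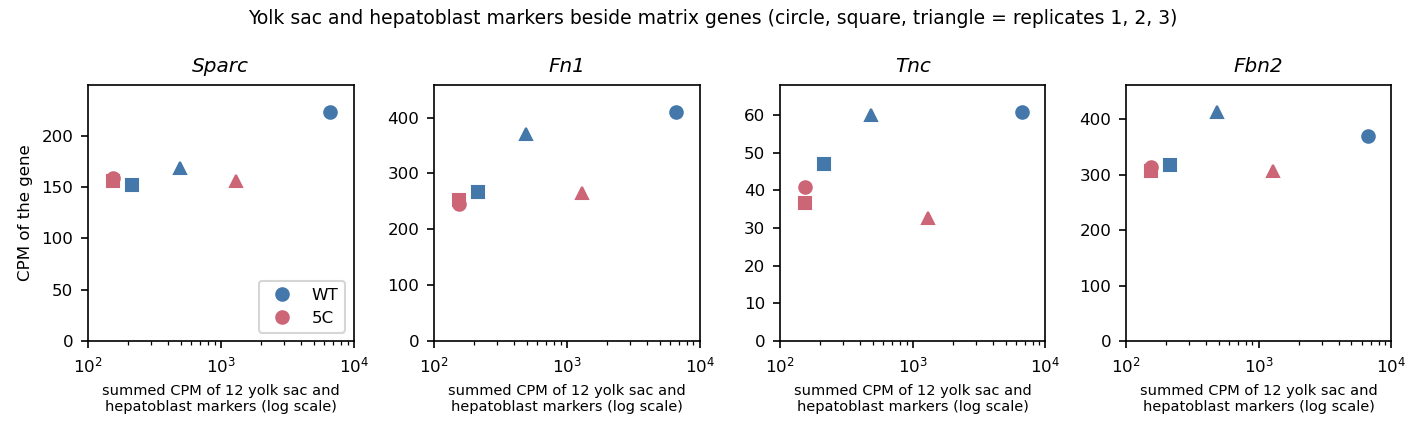
CPM of Sparc, Fn1, Tnc and Fbn2 in each library against the summed CPM of 12 yolk sac endoderm and hepatoblast markers on a log axis (WT blue, 5C red; symbols as replicate numbers). WT replicate 1, at 6646 CPM of markers, has the highest Sparc at 223 CPM and the highest Fn1 at 410 CPM, while 5C replicate 3, at 1294 CPM of markers, has the lowest Tnc at 32.7 CPM.

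The microfibril genes differed by less than Tnc. Fbn1 (chr2:125300594-125507993, minus strand) was at 111, 109 and 135 CPM in the WT pools, against 103, 103 and 87.9 CPM in the 5C pools. The groups were 6.09 CPM apart, and 5C replicate 3 was the lowest pool. Its log2 fold change was -0.27 ± 0.10 (SE). An exon of Gm9913 on the opposite strand covered 20.1% of the exon bases of Fbn1, against 3.30% or less for every other member, and which strand column was counted is not stated, so some of its counts could belong to either gene. Fbn2 (chr18:58008623-58210487, minus strand) was at 369, 317 and 413 CPM in the WT pools, against 314, 306 and 306 CPM in the 5C pools. Its groups were 2.57 CPM apart, a gap that closed on the TPM scale, and the log2 fold change was -0.24 ± 0.09 (SE).

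Fbln1 encodes fibulin 1, which binds fibronectin, versican and elastic fibres (chr15:85205949-85286535, plus strand), and is the member with the miR-483-3p seed match shown above. It was at 103, 75.6 and 98.3 CPM in the WT pools, against 94.3, 88.5 and 92.6 CPM in the 5C pools. All 5C pools lay inside the WT range. The means were 92.2 ± 14.5 CPM (WT) and 91.8 ± 3.01 CPM (5C; SD over n = 3 pools), and the log2 fold change was -0.01 ± 0.11 (SE). Its direction turned with the pool left out, from -0.13 without WT replicate 2 to 0.09 without WT replicate 1.

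Eln and Lox, the elastin gene and the gene of its cross-linking enzyme, were the members with the lowest levels. Eln (chr5:134702593-134747323, minus strand) had 44, 19 and 17 counts in WT and 30, 21 and 19 in 5C, or 2.31, 1.63 and 2.71 CPM against 1.82, 1.79 and 1.35 CPM. The groups overlapped through WT replicate 2, and the log2 fold change was -0.39 ± 0.26 (SE). Lox (chr18:52516067-52529867, minus strand) was at 12.1, 7.90 and 7.34 CPM in the WT pools, against 9.03, 10.2 and 11.6 CPM in the 5C pools. The highest value of all was a WT one, in replicate 1, and all 5C values lay above the other WT pools. Its log2 fold change of 0.14 ± 0.20 (SE), became 0.42 without WT replicate 1.

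Vcan (chr13:89655312-89742509, minus strand), the member with the most counts, was at 989, 1134 and 1119 CPM in the WT pools, against 1107, 1075 and 1055 CPM in the 5C pools. The 5C pools lay within the WT range. The means of 1081 ± 80.0 CPM (WT) and 1079 ± 26.7 CPM (5C; SD over n = 3 pools) gave a log2 fold change of -0.00 ± 0.07 (SE). Taken per length against Vcan, Tnc was at 0.114, 0.0772 and 0.100 in WT and at 0.0688, 0.0635 and 0.0578 in 5C, so the ratio was lower in every 5C pool than in any WT pool. Without Vcan, the other 9 genes summed to 1523, 1149 and 1464 CPM in WT and to 1075, 1140 and 1156 CPM in 5C. WT replicate 2 lay near the 5C pools in this sum.

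**Figure D3:**
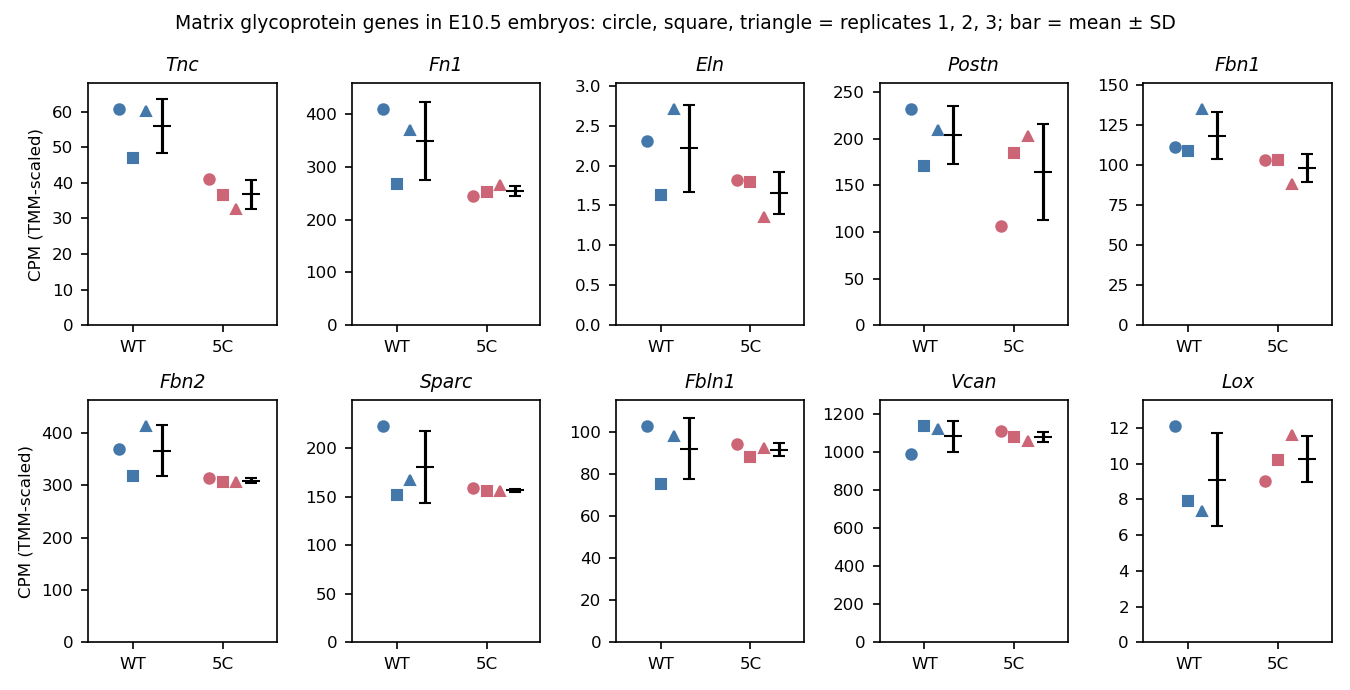
CPM of each of the 10 genes in the 3 WT (blue) and 3 5C (red) libraries, ordered from the most negative to the most positive log2 fold change, with the mean ± SD beside the points (circle, square and triangle for replicates 1, 2 and 3; axes start at 0). Tnc has separated groups, at 47.1 CPM or more in WT and 41.0 or less in 5C, whereas the points of Vcan, Fbln1 and Lox intermingle.

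By coefficient of variation, the WT pools varied more among themselves than the 5C pools for 9 of 10 members, Postn being the exception. This was not particular to the members. Over the well-counted genes of the table, the chi-square per gene between 2 libraries was 20.8, 24.7 and 21.3 within WT. Within 5C it was 5.77, 15.2 and 6.02. Between WT replicate 2 and 5C replicates 1, 2 and 3 it was 11.6, 7.06 and 8.11, and between WT replicates 1 or 3 and the 5C pools 15.2 to 23.6. Over these genes too, WT replicate 2 was thus nearer to the 5C pools than to the other WT pools. WT replicate 2 had the lowest WT value for 8 of 10 members, the exceptions being Vcan and Lox, and WT replicate 1 had the highest for 6. Relative to the WT mean, the median member was at 0.15, -0.24 and 0.11 on the log2 scale in WT replicates 1, 2 and 3, and at -0.20, -0.20 and -0.22 in the 5C pools. The median member of WT replicate 2 was thus no higher than that of the 5C pools. Tnc was an exception, at -0.24 in WT replicate 2 and -0.44, -0.60 and -0.76 in 5C. Without WT replicate 2, 8 of 10 members had separated groups, where 13.4% of all genes did. Over replicates 1 and 3 alone the members were again 8, where 17.9% of all genes did, and the median log2 fold change was -0.35. WT replicate 2 was also 1 of the 2 pools with Y-linked transcripts at 1.37 CPM or less. The other such pool, 5C replicate 2, had a median member at -0.20, as had 5C replicate 1.

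**Figure D4:**
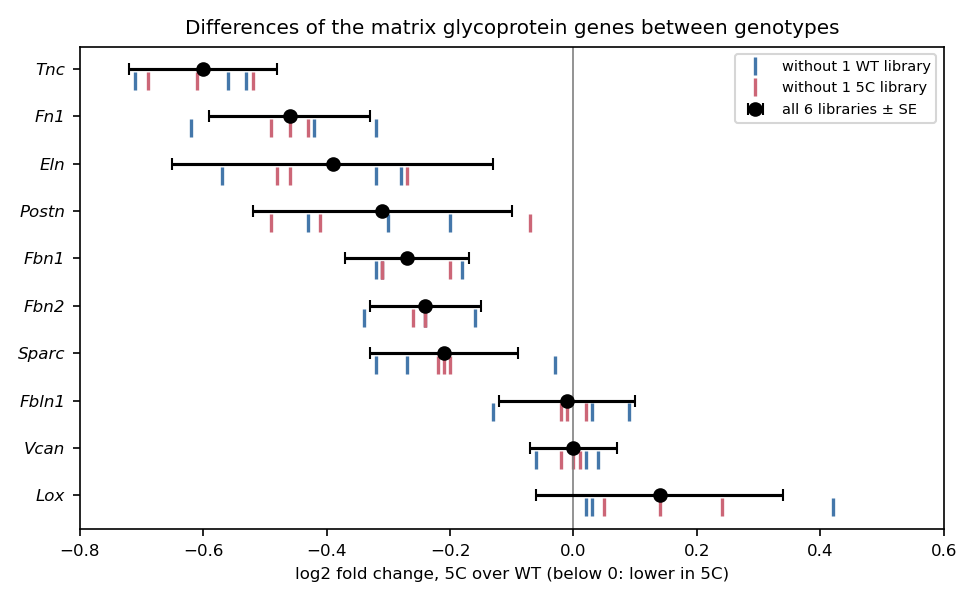
Log2 fold change of 5C over WT for each gene (black point, ± standard error) and the same value with 1 library left out (blue ticks for a WT library, red for a 5C library). Tnc stays between -0.71 and -0.52, whereas Sparc reaches -0.03 without WT replicate 1, Postn reaches -0.07 without 5C replicate 1, and Fbln1 and Vcan lie on both sides of 0.

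Over the 6 libraries the log2 levels of Fbn2, Eln, Fn1 and Fbn1 were the most like those of Tnc among the members, with Pearson correlations of 0.884, 0.878, 0.870 and 0.861. Vcan and Lox had values of -0.123 and -0.322. Among 10341 genes with a mean of at least 10 CPM, members left out, the closest was Vcl at 0.991, which encodes vinculin of focal adhesions. It was at 166, 155 and 165 CPM in the WT pools, against 146, 138 and 132 CPM in the 5C pools. Specc1 (0.989), Dock6 (0.988), Ap1g1 (0.986) and Hint2 (0.985) followed. These are descriptions over 6 points that share their genotype difference and library scaling.

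The other genes of the matrix were given by 6 lists of 148 genes, of which 126 were tested. No gene of any list passed the adjusted threshold. At an unadjusted p under 0.05 in edgeR, 10 were lower in 5C and 4 higher, where 3.47% of all genes tested were lower and 2.55% higher. The median over the 126 genes was -0.09. The lists were not picked for how their genes moved, but earlier results of these data were known.

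Basement membrane genes stood lowest of the 6 lists. Of 22 genes tested, 21 had a negative log2 fold change, with a median of -0.19, and 7 had an unadjusted p under 0.05 in that direction. Fras1 and Frem2, which encode proteins that anchor the epidermal basement membrane, were lower in every 5C pool than in any WT pool. Fras1 was at 104, 91.8 and 109 CPM in the WT pools, against 77.0, 79.0 and 84.3 CPM in the 5C pools, a log2 fold change of -0.34 ± 0.08 (SE) (unadjusted p = 0.00203, adjusted p = 0.781 in edgeR). Frem2 had a log2 fold change of -0.24 ± 0.08 (SE) (unadjusted p = 0.0153, adjusted p = 0.781). Hspg2, the perlecan gene, was at 103, 73.2 and 101 CPM in the WT pools, against 76.1, 70.0 and 70.7 CPM in the 5C pools, with overlap through WT replicate 2 (unadjusted p = 0.0168, adjusted p = 0.781). Egfl6, an integrin-binding matrix gene of hair follicle and epidermis, was the exception, at 3.00 ± 0.707 CPM (WT) and 4.57 ± 0.996 CPM (5C; SD over n = 3 pools). The count of 7 was 2 without WT replicate 1, WT replicate 3 or 5C replicate 2, and 11 without WT replicate 2. Over all genes tested, 583 were lower at such a p, and 439, 554, 293 and 1222 without these libraries in turn.

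Elastic fibre and microfibril assembly genes had 17 of 23 tested members lower in 5C, with a median of -0.10 and 2 with an unadjusted p under 0.05, both lower. Emilin1, an elastic fibre interface protein, was at 112, 114 and 108 CPM in the WT pools, against 100, 98.6 and 89.8 CPM in the 5C pools, with no overlap (log2 fold change -0.21 ± 0.07 SE, unadjusted p = 0.0129, adjusted p = 0.781). Ltbp1, which tethers latent TGF-beta to microfibrils, had a log2 fold change of -0.22 (unadjusted p = 0.0452, adjusted p = 0.781), and its groups overlapped. Adamtsl2, a microfibril-binding protein, had -0.30 ± 0.18 (SE).

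Partners and receptors of tenascin and fibronectin were split, with 11 of 17 lower and a median of -0.06. Itga9, the gene of an integrin chain that binds tenascin C, was at 78.9 ± 3.63 CPM (WT) and 72.4 ± 3.36 CPM (5C; SD over n = 3 pools), a log2 fold change of -0.12. Sdc1 had -0.26 ± 0.14 (SE). Sdc2, which like Sdc1 encodes a cell surface heparan sulphate proteoglycan, was the 1 gene of this list with an unadjusted p under 0.05, and it was higher in every 5C pool (log2 fold change 0.22, unadjusted p = 0.0259, adjusted p = 0.781). The summed level of the list was 1275 to 1315 CPM in WT against 1313 to 1324 CPM in 5C pools.

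Hyaluronan and versican partners had 9 of 17 genes lower and none with an unadjusted p under 0.05. Has2, the hyaluronan synthase of the cardiac jelly, had a log2 fold change of 0.16 ± 0.10 (SE), and the versican-cleaving proteases Adamts15 and Adamts9 had -0.19 and -0.12. Matricellular genes outside the 10 had 11 of 23 lower and 12 higher, with a median of 0.01. Both genes of that list with an unadjusted p under 0.05 were higher in 5C. Ogn, a small leucine-rich proteoglycan, was at 1.66 ± 0.409 CPM in WT and 3.35 ± 1.03 CPM in 5C (log2 fold change 0.96, unadjusted p = 0.0108, adjusted p = 0.781 in edgeR, SD over 3 libraries each). Spp1, the osteopontin gene, had 0.48 ± 0.20 (SE) (unadjusted p = 0.0406, adjusted p = 0.781), and Sparcl1, a relative of Sparc, had 0.28 ± 0.12 (SE). Matrix proteases and inhibitors had 15 of 24 lower with a median of -0.06. Mmp14, a membrane-bound collagenase, was at 69.7, 59.5 and 67.0 CPM in the WT pools, against 59.2, 56.4 and 55.5 CPM in the 5C pools, with no overlap (unadjusted p = 0.0349, adjusted p = 0.781 in edgeR). Adamts2, a procollagen protease, had -0.40 ± 0.22 (SE), and Reck, a membrane inhibitor of metalloproteases, had -0.15 ± 0.09 (SE).

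**Figure D5:**
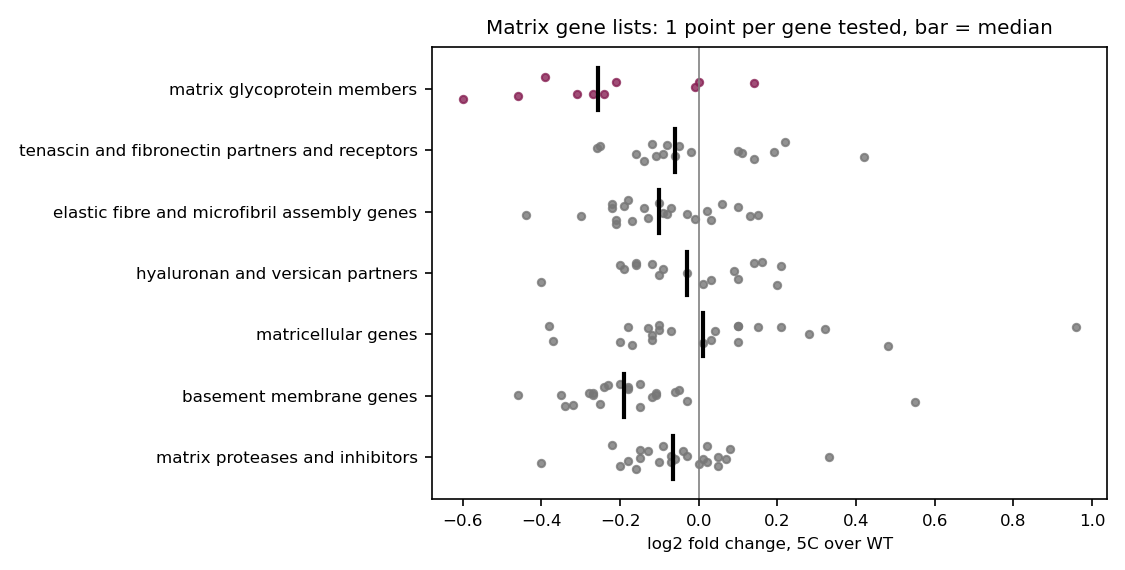
Log2 fold change of 5C over WT for every tested gene of the 10 members (purple) and of the 6 other matrix lists (grey), with a bar at each median. The members' median is -0.26 and that of the basement membrane genes -0.19, while the matricellular list centres on 0.01 with Ogn at 0.96.

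Markers of cell types that make or adjoin this matrix are set beside these results. The 6 smooth muscle markers were all lower in 5C, with summed levels of 176, 177 and 163 CPM in the WT pools, against 135, 140 and 140 CPM in the 5C pools, and Acta2, the smooth muscle actin, had a log2 fold change of -0.38 (unadjusted p = 5.2e-04, adjusted p = 0.781). The 8 cardiomyocyte markers were all lower, at 559, 738 and 576 CPM summed in WT and 507, 484 and 536 CPM in 5C. Groups were separated for 3 of them, where 5.10% of all genes tested had this arrangement, and overlapped for the others. These 3 were Myh6 (log2 fold change -0.85, unadjusted p = 3.5e-04), Myh7 (-0.47, unadjusted p = 8.4e-04) and Actc1 (-0.21, unadjusted p = 0.0303), each with an adjusted p of 0.781 in edgeR. Neural markers, by contrast with the members, were higher for 9 of 10 genes, with a median of 0.10. For 4 of these 10 every 5C pool was above every WT pool, an arrangement that 1051 of the 16784 genes tested had. An unadjusted p under 0.05 in edgeR was seen for 2, Elavl4 (log2 fold change 0.31, unadjusted p = 0.00606, adjusted p = 0.781) and Sox2 (0.25, unadjusted p = 0.00923, adjusted p = 0.781). The summed level of the list, in which Nes and Tubb3 weigh most, overlapped at 1066 to 1111 CPM in WT against 1027 to 1173 CPM in 5C pools. Endothelial markers summed to 354 to 376 CPM in WT against 343 to 372 CPM in 5C pools. Primitive erythroid markers were higher for 6 of 8 genes, and their sums overlapped at 9163 to 12620 CPM in WT and 8341 to 16402 CPM in 5C. Decidua markers were higher for 7 of 10 genes, with a median of 0.26, and their sums overlapped at 74.4 to 116 CPM against 69.0 to 119 CPM. The 3 of them with an unadjusted p under 0.05 were granzyme genes at 1.55 CPM or less in WT, Gzmg (log2 fold change 2.24, unadjusted p = 0.0132), Gzmc (2.03, unadjusted p = 0.0219) and Gzmf (1.63, unadjusted p = 0.0397), each with an adjusted p of 0.781 in edgeR and overlapping groups. The part of these cell types in the values of Tnc and the other members was not tested.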

How the data were processed

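The authors isolated RNA from whole embryos, made stranded poly(A)-selected libraries, aligned reads with STAR to GRCm38 and deposited raw counts per Ensembl gene. The strand setting of the counting is not given in the sources used here. All deposited values were whole numbers and unnormalized. Groups and replicate numbers came from the sample titles. For symbols, exon lengths and 3′ UTRs, 55141 of 55401 identifiers were matched to GENCODE on GRCm38.

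Genes were kept by filterByExpr, scaled by TMM and tested with the two-sided quasi-likelihood F-test of edgeR 4.0.16 in R 4.3.3, with Benjamini-Hochberg adjustment over the 16784 genes. A call needed a fold change over 1.5 together with an adjusted p below 0.05. The biological coefficient of variation was 13.6%. The procedure was tested on simulated data. DESeq2 1.42.0, limma 3.58.1, other scalings and filters, GC offsets, the replicate block and leaving out libraries were alternatives. The members and lists were chosen with earlier results of these data known. Named were all members, the 3 genes of smallest p in each list and the 5 genes most like Tnc. Egfl6, marker genes and the sex-linked genes were named after their values were seen. The floor of 3 counts covers counting error only.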

Additional observations from a re-analysis of the deposited data

How the results depend on the processing

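The count of genes called, 0 as reported, was 319 without a count filter, 10 with DESeq2, 3 with robust moderation and 0 to 1 with any library left out. Tnc was the 1 member called without a count filter and with DESeq2, and no member was called in any other setting. The 4 members with separated groups were 2 under GC-content offsets (Tnc and Fbn1) and 1 on the TPM scale (Tnc). With library size alone they were 3. They were 4 to 8 with a library left out, the 8 being without WT replicate 2. Over replicates 1 and 3 alone, a setting chosen after seeing the data, they were again 8. Of all genes, 5.10% were so separated as reported, 5.05% under GC-content offsets, 2.19% in TPM and 3.90% with library size alone. The share was 8.09% to 13.4% with a library left out and 17.9% over replicates 1 and 3. Tnc, known to be lower in 5C when the members were selected, was in each of these sets of members. Members lower in 5C numbered 7 to 9 in every setting, because Fbln1 and Vcan, near 0, took either sign. The members' median ranged from -0.33 to -0.22 with a library left out and from -0.35 to -0.21 otherwise. The 14 companion genes at an unadjusted p under 0.05 were 24 without a filter, 8 with GC-content offsets and 7 with the replicate block added. They were 5 to 32 with a library left out, the extremes being without WT replicates 3 and 2. Over all genes tested, 1011 had such a p as reported, 2170 without a filter (of 33139 genes), 847 with GC-content offsets and 544 with the block added. With WT replicates 3 and 2 left out in turn, 886 and 1803 of all genes had it. The 7 basement membrane genes with such a p, lower in 5C, were 4 with library size alone, 4 with GC-content offsets and 3 with the block added. They were 2 to 11 with a library left out. Over all genes, 583 were lower at such a p as reported, 445 with library size alone, 520 with GC-content offsets and 353 with the block added. With a library left out, 293 to 1222 of all genes were. The cause of these shifts was not tested. Log2 fold changes went with GC content over all genes (Spearman rho -0.313 across 16770 genes, which are not independent). The members' GC content ranged from 36.3% to 58.8%, against a median of 49.0% over those genes. Postn, Vcan and Lox lay below that median, and every other member lay above it, at 52.3% or more. The part of GC content in the members' differences was not tested. Same-numbered libraries correlated in their deviations at -0.174, 0.202 and -0.166, so the numbers were not taken as pairs. With the replicate block the log2 fold change of Tnc was -0.60, the members' median was -0.25 and no gene was called. Depth limits Eln most, at 17 to 44 counts per library.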
